A study of Mus musculus with 29 samples.

Results

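The 10 genes described here encode a glucose transporter and 9 enzymes of glycolysis: Slc2a1, Hk1, Hk2, Pfkl, Aldoa, Gapdh, Pgk1, Pgam1, Pkm and Ldha. They were taken by symbol, through their Ensembl identifiers, from the 38924 genes of the count table. All 10 were found, and all 10 passed the filter on low counts. Bulk RNA-seq had been done on 4 bone marrow populations of young C57BL/6 mice, at 6 weeks after pIpC: long-term haematopoietic stem cells (LT-HSC), short-term haematopoietic stem cells (ST-HSC) and the multipotent progenitors MPP3 and MPP4. MPP3 is biased to myeloid and MPP4 to lymphoid cells. The mice were controls or carried a mutation of Dnmt3a, a DNA methyltransferase gene. The labels state pIpC for all libraries together, controls included. It is a double-stranded RNA mimic that induces interferon and is used to switch on inducible Cre lines. The mutant allele, the promoter that drives a Cre and whether a library is 1 animal or a pool are not given in the sources used here. Control libraries numbered 4 for LT-HSC, 3 for ST-HSC, 3 for MPP3 and 4 for MPP4. Mutant libraries numbered 3 for LT-HSC and 4 for each of ST-HSC, MPP3 and MPP4, which makes 29 in all. Nothing in the labels says that libraries of a group came from separate animals, so p-values measure only the spread between these libraries, which may be technical.

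Glycolysis turns glucose into pyruvate and, through lactate dehydrogenase, into lactate, and yields ATP without oxygen. Quiescent haematopoietic stem cells are known for relying on it, under control of the hypoxia-inducible factor HIF, while progenitors that divide draw more on mitochondria. HIF and MYC are both textbook activators of most genes of the pathway. In RNA from a whole population, fewer cells of a type and less RNA per cell cannot be told apart.

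Slc2a1 encodes the glucose transporter GLUT1 and lies at chr4:119108711-119137983 of the GRCm38 build. The hexokinases, which trap glucose as its phosphate, are encoded by Hk1 (chr10:62268855-62379908) and Hk2 (chr6:82725025-82774454). Pfkl (chr10:77986947-78010083) encodes the liver type of phosphofructokinase, the committing step, and Aldoa (chr7:126795234-126800751) the aldolase that splits its product. Gapdh (chr6:125161715-125166467), Pgk1 (chrX:106187100-106203699) and Pgam1 (chr19:41911923-41918660) encode the dehydrogenase, kinase and mutase of the later, ATP-yielding part of the pathway. Pkm (chr9:59656368-59679375) encodes the muscle pyruvate kinases, and Ldha (chr7:46841475-46855627) the A subunit of lactate dehydrogenase.

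The promoters of the 5 genes that differed between populations (below) are shown because HIF and MYC recognise short motifs that can be read in them. Each is the run of 250 bases before the most upstream RefSeq transcript start (GRCm38.p6), written 5′ to 3′ on the strand of the gene, with ACGTG, the core of the HIF motif, and its reverse complement CACGT in capitals. The windows are Pgk1 at chrX:106186850-106187099 (plus strand), Pgam1 at chr19:41911621-41911870 (plus strand), Ldha at chr7:46845554-46845803 (plus strand), Gapdh at chr6:125165774-125166023 (minus strand) and Hk1 at chr10:62379909-62380158 (minus strand).
Pgk1: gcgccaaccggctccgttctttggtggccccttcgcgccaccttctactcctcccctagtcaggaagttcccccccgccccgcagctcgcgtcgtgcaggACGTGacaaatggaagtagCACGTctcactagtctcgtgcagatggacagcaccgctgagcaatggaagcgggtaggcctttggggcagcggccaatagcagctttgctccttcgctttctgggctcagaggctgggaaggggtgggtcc
Pgam1: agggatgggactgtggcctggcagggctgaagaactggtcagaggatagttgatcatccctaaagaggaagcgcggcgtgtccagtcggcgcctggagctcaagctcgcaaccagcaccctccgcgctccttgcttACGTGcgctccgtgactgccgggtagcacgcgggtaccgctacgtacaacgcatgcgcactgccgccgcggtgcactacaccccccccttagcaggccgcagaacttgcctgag
Ldha: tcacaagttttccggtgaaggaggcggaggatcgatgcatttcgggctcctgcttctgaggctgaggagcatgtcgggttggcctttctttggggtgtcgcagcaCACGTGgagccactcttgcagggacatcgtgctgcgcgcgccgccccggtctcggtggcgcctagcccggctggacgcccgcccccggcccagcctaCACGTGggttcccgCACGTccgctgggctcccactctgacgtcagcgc
Gapdh: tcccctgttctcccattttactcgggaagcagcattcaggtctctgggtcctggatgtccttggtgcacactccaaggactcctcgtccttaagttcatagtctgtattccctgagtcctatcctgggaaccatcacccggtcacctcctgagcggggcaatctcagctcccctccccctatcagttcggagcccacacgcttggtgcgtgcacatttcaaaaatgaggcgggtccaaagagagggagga
Hk1: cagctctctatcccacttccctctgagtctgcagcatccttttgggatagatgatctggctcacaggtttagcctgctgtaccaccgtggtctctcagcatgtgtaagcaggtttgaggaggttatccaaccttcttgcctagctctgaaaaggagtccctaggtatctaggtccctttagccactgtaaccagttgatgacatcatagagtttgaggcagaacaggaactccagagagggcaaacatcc

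ACGTG was present on either strand in the windows of 5 of the 10 genes (Slc2a1, Hk2, Pgk1, Pgam1 and Ldha), against 16.5% of the windows of 27025 genes taken the same way. The windows with a match held 62.8% to 69.6% of G and C bases and those without held 49.6% to 66.4%. The 27025 windows were not matched for base content, so the shares do not show an enrichment. CACGTG, the palindromic E-box that MYC binds, contains ACGTG on both strands. It was found in the Ldha window, at 2 places, and in 6.04% of all windows. Pgk1 held 2 matches to ACGTG, Pgam1 held 1, and the Gapdh and Hk1 windows held 0. A match is a description of these letters and not a binding site. By the gene coordinates given above, the Ldha and Gapdh windows lie inside the gene. Which start is used in these cells was not determined, so the matches, and their absence, hold for these windows only.

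The libraries held 6133994 to 10374672 counts (median 8154515), so a count of 0 in a library allows up to 0.288 to 0.564 CPM (the usual depth-scaled count, here on TMM-scaled library sizes, with 3 counts as the limit), for counting error only. No member was near that level, with 62 counts for the lowest value, of Pfkl. To look for a library deposited more than once, libraries of a group were compared in pairs, and none of the 39 pairs agreed within counting error (chi-square over its degrees of freedom at least 20.3). All libraries were used. Dnmt3a RNA ran from 81.9 to 166.7 CPM in the control LT-HSC libraries and from 120.3 to 136.6 CPM in the mutant ones. Its ranges also overlapped between genotypes in ST-HSC, MPP3 and MPP4, so the level of its RNA does not check the genotype labels. Defining markers followed the labels for MPP4 and MPP3: Flt3 was at 379.0 CPM or more in every MPP4 library and at 207.7 CPM or less elsewhere, and Mpo was at 3576 CPM or more in every MPP3 library and at 1066 CPM or less elsewhere. Slamf1, a marker of LT-HSC, was at 14.2 to 54.1 CPM in LT-HSC and at 0 to 3.52 CPM elsewhere, except for 405.6 CPM in mutant ST-HSC replicate 2. The list of 8 LT-HSC markers that holds Slamf1 summed to 684.8 to 1235 CPM in control and 1199 to 1509 CPM in mutant LT-HSC. In ST-HSC the sums were 1026 to 1911 CPM (control) and 1080 to 2214 CPM (mutant), so they did not set LT-HSC apart from ST-HSC. Control LT-HSC replicates 1, 2 and 3 stood apart, with 2258, 582.9 and 348.6 CPM of the neutrophil gene S100a8, against 114.8 CPM or less in every other library, and calls of members that rest on them are also given without them.

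Summed over the 10 genes, the level was lowest in control ST-HSC at 1387 ± 180.0 CPM (SD, n = 3) and highest in mutant MPP3 at 2478 ± 175.8 CPM (SD, n = 4). Control LT-HSC held 1575 ± 150.8, control MPP4 1890 ± 294.4 and control MPP3 2147 ± 308.0 CPM (SD, n = 4, 4 and 3). Mutant LT-HSC held 1669 ± 234.5, mutant ST-HSC 1609 ± 173.8 and mutant MPP4 1940 ± 282.2 CPM (SD, n = 3, 4 and 4). Gapdh alone was 43.8% to 62.4% of the sum in single libraries, so the sum followed Gapdh closely. Without Gapdh the group means ran from 643.6 CPM in control ST-HSC to 1074 CPM in mutant MPP3. Mutant LT-HSC, at 874.4 CPM, then stood above control MPP4, at 858.9 CPM, and mutant MPP4, at 834.4 CPM, a difference well inside their SDs of 111.7, 127.9 and 215.0 CPM.

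Per kilobase of exon, Gapdh was the highest of the 10, with a median over the 29 libraries of 226 CPM per kb. Ldha followed at 61.9, Pgam1 at 51.6, Pgk1 at 38.4, Pkm at 33.7 and Aldoa at 32.0 CPM per kb. Hk1 reached 9.56, Slc2a1 6.82, Hk2 6.24 and Pfkl 4.10 CPM per kb, the 4 lowest of the 10. Slc2a3, a transporter gene outside the 10, exceeded Slc2a1 per kilobase in every group (below), so this order does not place uptake as a whole. The order among the higher and among the lower genes depends on the length used. Per kilobase of the longest coding transcript, Gapdh and Ldha stayed first and second, Pkm (69.2) and Aldoa (60.1) passed Pgam1 (57.7) and Pgk1 (47.2), and the same 4 genes stayed lowest.

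**Figure D1:**
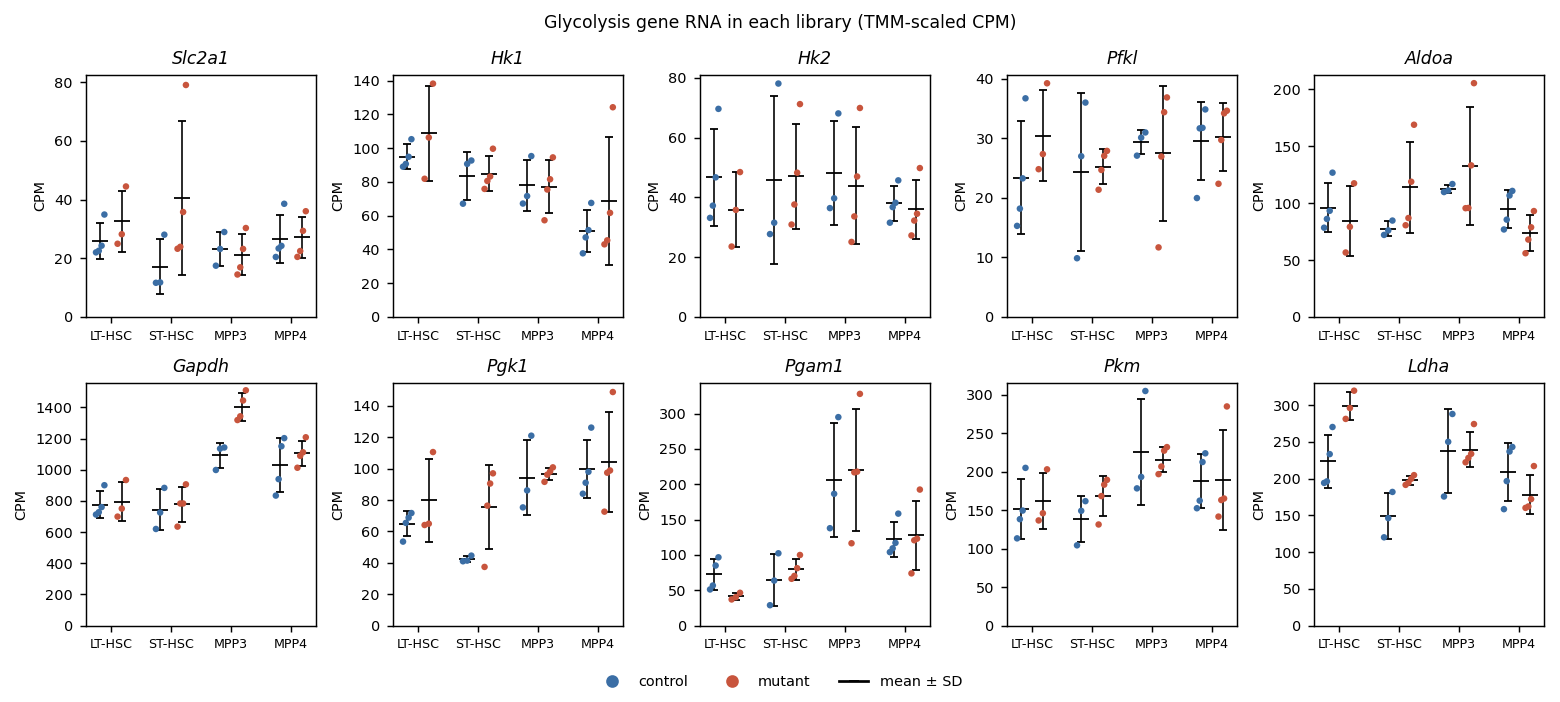
RNA level (CPM, linear axis from 0) of each of the 10 genes in the control (blue) and mutant (red) libraries of the 4 populations; each point is a library, and the black marks give the group mean ± SD. Pgam1 lies between 28.9 and 102.4 CPM in LT-HSC and ST-HSC and between 73.9 and 327.8 CPM in MPP3 and MPP4, while the mean of Ldha is highest in mutant LT-HSC.

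The differences that passed the threshold were between populations, in Pgam1, Gapdh, Pgk1, Ldha and Hk1. In control mice an edgeR quasi-likelihood F test over the 4 populations passed the threshold (Benjamini-Hochberg adjusted p under 0.05 over all genes tested) for Pgk1 (adjusted p = 0.00799) and Pgam1 (adjusted p = 0.0214), that is for 2 of the 10 genes, with 5.86% of all genes tested called. In mutant mice the same test called Pgam1 (adjusted p = 0.000504), Gapdh (adjusted p = 0.00369) and Ldha (adjusted p = 0.0239), 3 of the 10, with 6.18% of all genes called. Hk1 (adjusted p = 0.0547 in control and 0.551 in mutant mice), Hk2, Pfkl, Slc2a1, Aldoa and Pkm were called in neither genotype by this F test. Control Pgam1 was no longer called without control MPP3 replicate 2 (adjusted p = 0.105) or replicate 3 (adjusted p = 0.0502). Without the 3 control LT-HSC libraries high in S100a8 both control calls passed (adjusted p = 0.0272 and 0.045). Mutant Ldha was lost without LT-HSC replicate 1, 2 or 3 or MPP4 replicate 1, 2 or 4 (adjusted p = 0.0524 to 0.0954) and without the filter on low counts (adjusted p = 0.0559).

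Pgam1, the mutase between 3- and 2-phosphoglycerate, had the largest estimates. In control mice it was at 137.8, 294.9 and 186.5 CPM in the MPP3 libraries, at 51.2, 56.8, 85.0 and 96.7 CPM in the LT-HSC libraries and at 28.9, 63.8 and 102.4 CPM in the ST-HSC libraries. Every MPP3 library was above every LT-HSC and ST-HSC library. The share of all genes without overlap was not computed between populations, so a lack of overlap, here and below, only describes these libraries. The difference on the log2 scale was 1.52 ± 0.35 (SE) from LT-HSC, a fold of 2.87 (edgeR adjusted p = 0.0398, with 1.39% of genes called), and 1.66 ± 0.39 from ST-HSC, a fold of 3.15 (edgeR adjusted p = 0.0377, with 1.75% of genes called). Control MPP4 libraries held 104.0 to 158.4 CPM of Pgam1, and their difference from LT-HSC, 0.76 ± 0.33, did not pass (edgeR adjusted p = 0.258).

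In mutant mice Pgam1 was at 37.1, 40.4 and 46.5 CPM in LT-HSC, the lowest mean of the 8 groups. Mutant MPP3 libraries held 116.5, 216.9, 217.8 and 327.8 CPM and mutant MPP4 libraries 73.9, 120.8, 123.0 and 192.5 CPM, with no overlap with LT-HSC. Against mutant LT-HSC the log2 difference was 2.39 ± 0.34 (SE) in MPP3, a fold of 5.24 (edgeR adjusted p = 0.000432, with 2.95% of genes called), and 1.62 ± 0.33 in MPP4, a fold of 3.07 (edgeR adjusted p = 0.0091, with 2.18% of genes called). Mutant MPP3 also stood above mutant ST-HSC, whose libraries held 66.3 to 99.9 CPM, by 1.46 ± 0.29 (edgeR adjusted p = 0.0073, with 4.27% of genes called). The mutant MPP4 difference was lost without mutant LT-HSC replicate 1 (edgeR adjusted p = 0.0676) or replicate 3 (edgeR adjusted p = 0.0597). The mutant MPP3 differences passed under each single omission, including that of the ST-HSC library high in Slamf1 (1.60, edgeR adjusted p = 0.00916).

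The size of the Pgam1 differences depends on a processed pseudogene. Pgam1-ps2 matches the Pgam1 transcript at 100% identity over 765 bases, and the authors' counting listed reads on it. Pseudogene rows held 43.4% to 48.0% of the combined Pgam1 counts in the mutant LT-HSC libraries and 0.155% to 39.4% in the mutant MPP3 libraries. With those counts added to Pgam1, the log2 difference of mutant MPP3 from mutant LT-HSC was 1.72 in place of 2.39 (edgeR adjusted p = 0.000911). That of mutant MPP4 from mutant LT-HSC was 1.15 (edgeR adjusted p = 0.0176), and that of control MPP3 from control LT-HSC was 1.21 (edgeR adjusted p = 0.0483). All 5 Pgam1 calls above passed with the counts added, and their folds were smaller. Against LT-HSC, Pgam1 was lost in control MPP3 without any of LT-HSC replicates 2, 3 or 4 or MPP3 replicates 2 or 3 (edgeR adjusted p = 0.0626 to 0.215). Without the 3 control LT-HSC libraries high in S100a8 its log2 difference was 2.01 (edgeR adjusted p = 0.215). Against ST-HSC, the control MPP3 call was lost without ST-HSC replicate 2 or 3 or MPP3 replicate 2 or 3 (edgeR adjusted p = 0.0964 to 0.149). With the number in the description as a replicate block the same 2 control differences were 1.56 (edgeR adjusted p = 0.072) and 1.78 (edgeR adjusted p = 0.0636).

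**Figure D2:**
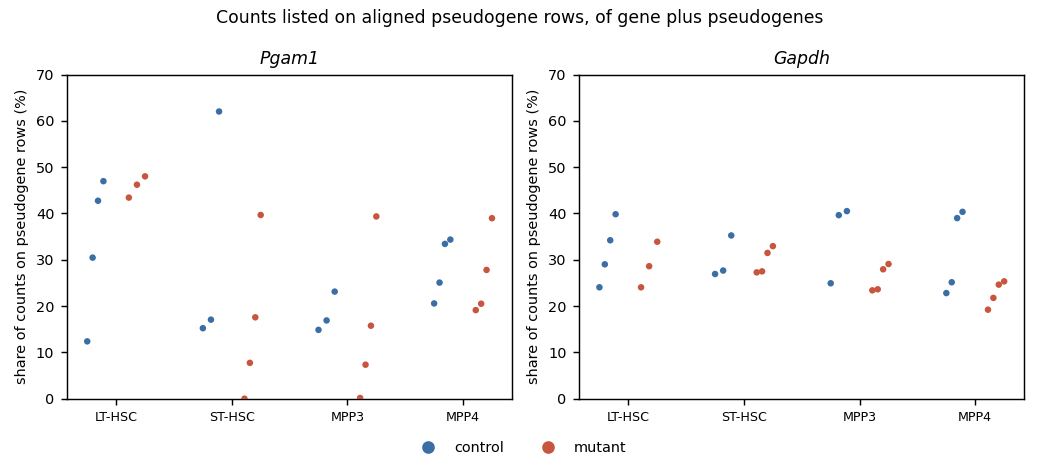
Share (%) of the counts of Pgam1 (left) and Gapdh (right) plus their aligned pseudogenes that is listed on pseudogene rows; each point is a library, blue for control and red for mutant. The Pgam1 share is 43.4% to 48.0% in mutant LT-HSC and spreads from 0% to 39.7% in mutant ST-HSC, and the Gapdh share lies between 19.2% and 40.5%.

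Gapdh, the dehydrogenase that makes NADH, was also highest in MPP3 among the mutant populations. Mutant MPP3 libraries held 1318, 1342, 1444 and 1509 CPM, the 4 highest values of the series, against 699.3, 750.8 and 933.9 CPM in mutant LT-HSC and 635.1, 783.4, 783.6 and 906.2 CPM in mutant ST-HSC. The groups did not overlap. Gapdh rose by 0.80 ± 0.17 (SE) on the log2 scale from LT-HSC, a fold of 1.74 (edgeR adjusted p = 0.0115), and by 0.84 ± 0.15 from ST-HSC, a fold of 1.79 (edgeR adjusted p = 0.0037). The call against LT-HSC was lost without mutant LT-HSC replicate 1 (edgeR adjusted p = 0.075) or replicate 3 (edgeR adjusted p = 0.0977). Control MPP3, at 998.2, 1135 and 1143 CPM, was above all 4 control LT-HSC libraries, which held 712.5 to 900.6 CPM, but the difference of 0.50 ± 0.19 did not pass (edgeR adjusted p = 0.232). The 150 Gapdh pseudogenes that aligned took 19.2% to 40.5% of the combined counts. With them added, both mutant calls passed, at 0.75 (edgeR adjusted p = 0.0108) and 0.77 (edgeR adjusted p = 0.00417).

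Pgk1, the first ATP-yielding kinase, was low in control ST-HSC, at 41.0, 41.5 and 44.6 CPM. Control MPP3 libraries held 75.4, 86.2 and 121.0 CPM and control MPP4 libraries 84.1, 91.1, 98.0 and 126.2 CPM, all above the 53.6 to 71.8 CPM of control LT-HSC, which in turn were above ST-HSC. Pgk1 was higher than in ST-HSC by 1.14 ± 0.23 (SE) on the log2 scale in MPP3 (edgeR adjusted p = 0.0227) and by 1.22 ± 0.22 in MPP4, a fold of 2.34 (edgeR adjusted p = 0.0119, with 1.49% of genes called). The MPP4 difference passed under each single omission, at an edgeR adjusted p of 0.0199 to 0.045. The MPP3 difference was lost without ST-HSC replicate 2 or 3 or MPP3 replicate 2 (edgeR adjusted p = 0.0656 to 0.083). Control ST-HSC against LT-HSC had a log2 difference of -0.60 ± 0.22, which did not pass (edgeR adjusted p = 0.299). In mutant mice the Pgk1 ranges of the 4 populations overlapped, and no pair passed. Mutant ST-HSC held 37.4, 76.5, 90.6 and 97.1 CPM, where 3 of 4 libraries were above every control ST-HSC library.

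Ldha, which sends pyruvate to lactate, had its highest mean in mutant LT-HSC. Mutant LT-HSC libraries held 281.3, 296.2 and 319.7 CPM of Ldha, above every other mutant library. Mutant MPP4 libraries held 160.3, 162.1, 172.2 and 217.2 CPM, and Ldha was lower there than in mutant LT-HSC by a log2 difference of -0.75 ± 0.16 (SE), a fold of 1.69 (edgeR adjusted p = 0.0157). The call was lost without mutant LT-HSC replicate 1 or 2 or MPP4 replicate 1, 2 or 4 (edgeR adjusted p = 0.0512 to 0.0879). Mutant ST-HSC held 191.6 to 204.8 CPM, also below LT-HSC without overlap, with a log2 difference of -0.61 ± 0.16 that edgeR did not call (adjusted p = 0.194) and DESeq2 did (adjusted p = 0.00899). In control mice the LT-HSC libraries held 194.2 to 270.3 CPM and overlapped MPP3 and MPP4. Control ST-HSC, with a mean of 149.5 CPM, lay below control LT-HSC without overlap, as in mutant mice. Its log2 difference of -0.57 ± 0.23 did not pass (edgeR adjusted p = 0.370).

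Hk1, the hexokinase expressed in most tissues, had its highest mean in LT-HSC in both genotypes. It was at 89.0, 90.7, 94.9 and 105.3 CPM in control LT-HSC and at 37.7, 47.1, 51.4 and 67.6 CPM in control MPP4, with no overlap. Its log2 difference was -0.89 ± 0.21 (SE), a fold of 1.86 lower (edgeR adjusted p = 0.0173, with 4.51% of genes called). It was lost without LT-HSC replicate 2 or MPP4 replicate 1 or 3 (edgeR adjusted p = 0.054 to 0.0605). Without the 3 control LT-HSC libraries high in S100a8 the size was similar, at -0.84, with an edgeR adjusted p of 0.527 from the 1 LT-HSC library left. In the same comparison 10 of 12 neutrophil markers and 12 of 12 erythroid markers were called lower in MPP4, and their part in the Hk1 difference was not tested beyond that value. In mutant mice 3 of the 4 MPP4 libraries held 43.0 to 61.7 CPM of Hk1 and the other held 124.3 CPM, and the log2 difference from LT-HSC, -0.67 ± 0.31, did not pass (edgeR adjusted p = 0.458).

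The other 5 members were called in no pair of populations by edgeR or DESeq2. Pkm, which makes pyruvate, ranged from 104.4 to 304.8 CPM, and its largest log2 difference was 0.70 ± 0.27 (SE), between control MPP3 and control ST-HSC (edgeR adjusted p = 0.208). Aldoa ranged from 56.0 to 205.4 CPM, with -0.83 ± 0.30 between mutant MPP4 and mutant MPP3 (edgeR adjusted p = 0.242). Slc2a1 ranged from 11.6 to 79.1 CPM, with -0.94 ± 0.38 between mutant MPP3 and mutant ST-HSC (edgeR adjusted p = 0.199). Hk2, the inducible hexokinase, ranged from 23.5 to 78.1 CPM and Pfkl from 9.86 to 39.2 CPM, and their adjusted p values in the tests over 4 populations were 0.872 or more. With the code that opens the column names as a term in the fit (both of its values occur in every group), all 16 calls of members in the population tests passed.

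**Figure D3:**
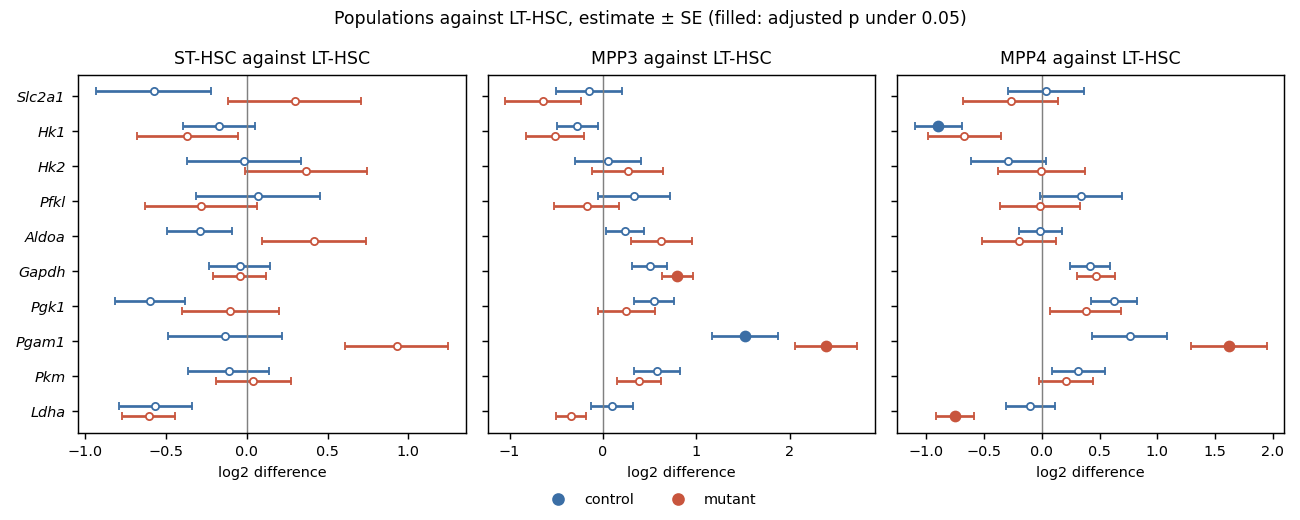
Log2 difference of ST-HSC, MPP3 and MPP4 from LT-HSC of the same genotype for the 10 genes; points are edgeR estimates, bars ± SE, blue control and red mutant, filled where the adjusted p is under 0.05. Pgam1 is filled in MPP3 for both genotypes, at 1.52 and 2.39, and Ldha (mutant) and Hk1 (control) are filled points to the left of 0 in MPP4.

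Across the 10 genes the median log2 difference from LT-HSC in control mice was 0.29 in MPP3, 0.18 in MPP4 and -0.15 in ST-HSC, against -0.02, -0.01 and 0.02 over all genes tested. Without the 3 LT-HSC libraries high in S100a8, which left only LT-HSC replicate 4, the members' medians were 0.48, 0.40 and 0.02. Medians over all genes are not given for that fit. From control ST-HSC it was 0.54 in MPP3, with 9 of 10 genes higher and 2 called (1.75% of all genes). In MPP4 it was 0.44, with 8 of 10 higher and 1 called (1.49% of all genes). Medians over all genes are not set beside these values or the mutant ones that follow, so they do not show a shift particular to the members. In mutant mice the medians from LT-HSC were 0.26 in MPP3 and -0.01 in MPP4, and from ST-HSC 0.24 and 0.01. ST-HSC against LT-HSC and MPP4 against MPP3 gave 0 called members in either genotype with edgeR. For ST-HSC against LT-HSC, 0.1% of genes were called in control and 0.278% in mutant mice, and for MPP4 against MPP3, 1.44% in each. At an unadjusted p under 0.05, ST-HSC against LT-HSC held 2 members in control (10.4% of genes) and 2 in mutant mice (7.93% of genes), and MPP4 against MPP3 held 2 in control (11.2% of genes) and 4 in mutant mice (11.5% of genes). DESeq2 called Ldha in mutant ST-HSC against LT-HSC (given above) and in mutant MPP4 against MPP3 (log2 difference -0.44, adjusted p = 0.0448). In mutant MPP4 against ST-HSC, where edgeR called 2.24% of genes, Gapdh had a log2 difference of 0.52 ± 0.15 (edgeR adjusted p = 0.097), and DESeq2 called it (adjusted p = 0.0245). In control mice DESeq2 also called Pgk1 in MPP4 against LT-HSC (adjusted p = 0.0493), where edgeR gave 0.62 ± 0.20 (adjusted p = 0.091), and Hk1 in MPP4 against ST-HSC (adjusted p = 0.0398), where edgeR gave -0.72 ± 0.22 (adjusted p = 0.119). The shares of all genes above are those of edgeR, and the DESeq2 calls are given without such a share.

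Other RNA differed between the same groups. All 20 genes of G2 and mitosis had lower estimates in ST-HSC than in LT-HSC in both genotypes, with 0 called in control and 2 in mutant mice. Their summed level was 984.3 to 1893 CPM in control ST-HSC and 1208 to 1509 CPM in mutant ST-HSC. It was 2486 to 5756 CPM in control LT-HSC, 2152 to 2833 CPM in mutant LT-HSC and 3391 to 4331 CPM in the MPP3 libraries. Of these 20 genes, 10 were called higher in control MPP3 and 18 in mutant MPP3 than in ST-HSC of the same genotype. The 12 markers of B and antibody-secreting cells, all of them detected in each MPP3 library, summed to 3957 to 38580 CPM in MPP3 and to at most 3315 CPM in any other library. The 12 neutrophil markers summed to 201.8 to 12411 CPM in control LT-HSC and to at most 888.1 CPM elsewhere, with Ly6g at 0 in every control ST-HSC and mutant MPP4 library. The 12 erythroid markers summed to 911.5 to 28078 CPM in control LT-HSC and 859.1 to 1175 CPM in mutant LT-HSC. Their part in the population differences was not tested.

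Mutant against control gave 0 called members in each population. edgeR called 0% of all genes in each of the 4 comparisons, and the LT-HSC test had 8.51%, the ST-HSC test 3.68%, the MPP3 test 2.23% and the MPP4 test 3.15% of genes at an unadjusted p under 0.05. Of the 10 genes, 1 in LT-HSC and 2 in ST-HSC were under that unadjusted limit, and 0 in MPP3 and MPP4. DESeq2 also called 0 of the 10 in each population, while over all genes it made 319 calls for LT-HSC, 6 for MPP4, 2 for MPP3 and 0 for ST-HSC.

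In LT-HSC the smallest p among the members was for Pgam1, with a log2 difference of -0.82 ± 0.26 (SE, edgeR adjusted p = 0.308). The 3 mutant libraries, at 37.1 to 46.5 CPM, were below the 4 control libraries, at 51.2 to 96.7 CPM. With pseudogene counts added, the difference was -0.54 (edgeR adjusted p = 0.6). Without the 3 control libraries high in S100a8, which left only control replicate 4, it was -0.30. Ldha was next, with a difference of 0.41 ± 0.19 (edgeR adjusted p = 0.59), with all 3 mutant libraries at 281.3 CPM or more and all 4 control libraries at 270.3 CPM or less. The other 8 members had overlapping ranges, and over all genes tested 7.31% did not overlap. Over all 10 the median difference was 0.14, against 0.00 for all genes tested, with 7 of 10 estimates above 0. Against control LT-HSC replicate 4 alone, without those 3 control libraries, it was 0.25, with 8 of 10 above 0. The median over all genes is not given for that fit, so the 2 values do not show a larger effect. In the same comparison the 12 neutrophil markers and the 12 erythroid markers all had lower estimates in the mutant, with medians of -3.71 and -4.13 and 0 called, and their part in the Pgam1 difference was not tested apart from the value without those libraries.

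In ST-HSC all 10 members had a higher estimate in the mutant, from 0.02 to 1.23 on the log2 scale, with a median of 0.28 against 0.01 over all genes tested. None of them passed. Without mutant ST-HSC replicate 2 the median was 0.18, with 9 of 10 above 0. Slc2a1 had the largest estimate, 1.23 ± 0.52 (SE, edgeR adjusted p = 0.998). The mutant libraries held 23.2, 23.9, 35.8 and 79.1 CPM and the control libraries 11.6, 11.8 and 28.0 CPM, so the groups overlapped. The 79.1 CPM belong to mutant ST-HSC replicate 2, the library with 405.6 CPM of Slamf1, and without it the Slc2a1 difference was 0.68 (edgeR adjusted p = 1). Pgk1 differed by 0.83 ± 0.33 (edgeR adjusted p = 0.998), with the overlap given above. Ldha was the member whose ranges did not overlap, at 191.6 to 204.8 CPM in the mutant and 120.2 to 182.0 CPM in the control libraries, with a difference of 0.40 ± 0.22 (edgeR adjusted p = 0.998). Over all genes tested 4.9% did not overlap in this comparison.

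In MPP3 the members lay close to 0, with a median difference of -0.00, against 0.01 over all genes. Gapdh differed by 0.36 ± 0.17 (SE, edgeR adjusted p = 1), and its 4 mutant libraries, from 1318 CPM, were above the 3 control libraries, up to 1143 CPM. It was the 1 member without overlap, against 4.44% of all genes tested. With pseudogene counts added the Gapdh difference was 0.15 (edgeR adjusted p = 1). Aldoa, second by p, differed by 0.23 ± 0.28 (edgeR adjusted p = 1). In MPP4 the median was 0.03, against 0.01 over all genes. Aldoa was at 56.0 to 93.0 CPM in mutant and 76.9 to 110.7 CPM in control libraries, a difference of -0.36 ± 0.21 (edgeR adjusted p = 0.999). Hk1 differed by 0.43 ± 0.31 (edgeR adjusted p = 0.999), and this estimate rested on mutant MPP4 replicate 3, at 124.3 CPM, without which it was -0.01 (edgeR adjusted p = 0.997).

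**Figure D4:**
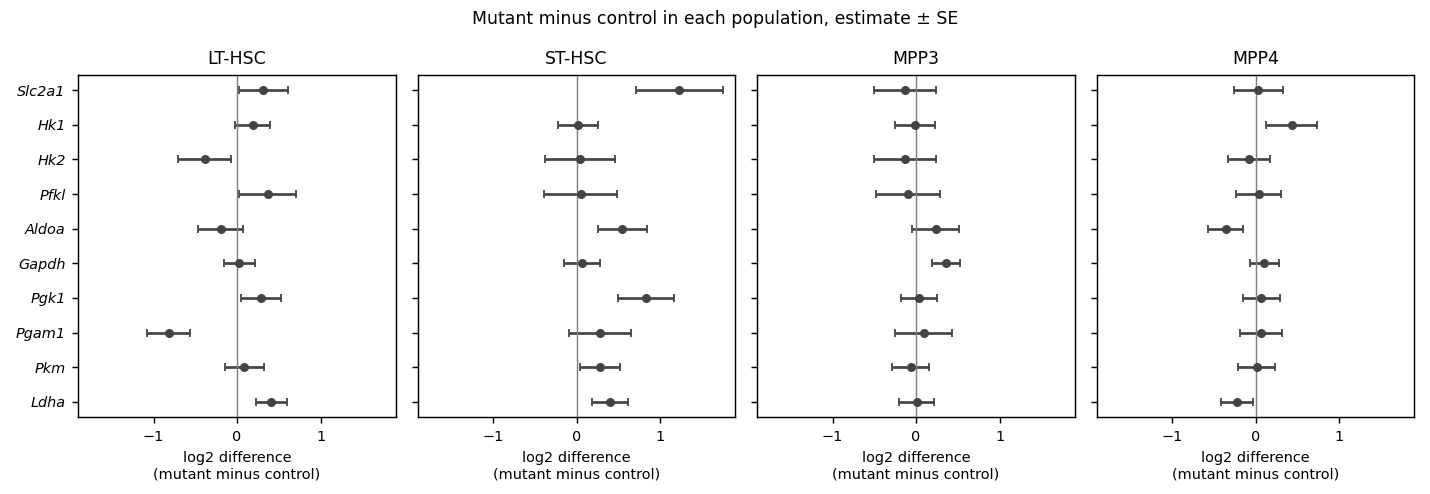
Log2 difference of mutant from control libraries for the 10 genes in each population; points are edgeR estimates and bars ± SE. All 10 points lie to the right of 0 in ST-HSC, Pgam1 lies at -0.82 in LT-HSC, and no difference passed the adjusted threshold.

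Averaged over the 4 populations, the mutant effect was tested in limma, and 0 of the 10 members and 0% of all genes passed, with 5.81% of genes and 0 members at an unadjusted p under 0.05. Pgk1 had the smallest p, at 0.27 ± 0.13 (SE, limma adjusted p = 0.863), and Gapdh followed at 0.14 ± 0.07 (limma adjusted p = 0.863). With pseudogene counts added the Gapdh estimate was 0.03. The other 8 members had SEs of 0.09 (Ldha) to 0.19 (Slc2a1). An edgeR F test over all 29 libraries asked whether the effect of the mutation varied with the population. It passed for 0 members and 0% of genes, with 5.94% of genes at an unadjusted p under 0.05 and with Ldha the member with the smallest p (0.0446, edgeR adjusted p = 0.823), followed by Slc2a1 (edgeR adjusted p = 0.926). DESeq2 called 53 genes and 0 members in that test.

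Several members have isoenzymes whose balance can be read within a library, where scaling cancels. The log2 ratio of counts per kilobase was compared for 5 pairs over the 6 population pairs, with genotypes averaged, by exact permutation tests of library labels within genotype. Of the 30 tests 9 passed after Benjamini-Hochberg adjustment. Of the 5 tests of mutant against control 0 passed, with Slc2a3 to Slc2a1 lowest (log2 difference -0.43, exact permutation p = 0.0492, adjusted p = 0.246).

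Slc2a3 encodes GLUT3, a transporter with high affinity for glucose. It exceeded Slc2a1 per kilobase in every group, by 4.15 times in control LT-HSC, 7.64 times in control ST-HSC, 2.64 times in control MPP3 and 2.46 times in control MPP4 (ratios of the mean log2 values). In mutant mice it did so by 3.09 times in LT-HSC, 3.30 times in ST-HSC, 2.66 times in MPP3 and 2.28 times in MPP4. The log2 ratio was lower in MPP4 than in LT-HSC (difference -0.60, exact permutation adjusted p = 0.0347) and than in ST-HSC (difference -1.08, exact permutation adjusted p = 0.0343). These averages combine -0.75 in control and -0.44 in mutant mice against LT-HSC, and -1.63 in control and -0.53 in mutant mice against ST-HSC. Slc2a3 itself fell from 220.2 ± 29.8 CPM (SD, n = 4) in control LT-HSC to 134.8 ± 32.2 CPM in control MPP4, by a log2 difference of -0.71 ± 0.20 (edgeR adjusted p = 0.0484). Pfkp encodes the platelet type of phosphofructokinase. The Pfkp to Pfkl ratio was 0.440 in control and 0.564 in mutant MPP4, and its log2 difference was -0.72 from LT-HSC (exact permutation adjusted p = 0.0472), -0.76 from ST-HSC (exact permutation adjusted p = 0.0343) and -0.63 from MPP3 (exact permutation adjusted p = 0.0476).

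Ldhb encodes the B subunit of lactate dehydrogenase, which favours pyruvate formation, and was lower than Ldha in every group. The Ldhb to Ldha ratio was lowest in MPP3, at 0.0809 in control and 0.128 in mutant mice, and higher in MPP4, at 0.236 and 0.361. The log2 ratio differed by -1.48 between MPP3 and ST-HSC and by 1.52 between MPP4 and MPP3 (exact permutation adjusted p = 0.0343 for each). Aldoc was low throughout, with 3 to 4 counts in the control MPP3 libraries and 0 to 47 in the mutant ones. Its ratio to Aldoa was lower in MPP3 than in LT-HSC (log2 difference -2.70, exact permutation adjusted p = 0.0343) and ST-HSC (-3.02, exact permutation adjusted p = 0.0476), and with 2 counts added in place of 0.5 the differences were -2.27 and -2.58. For Hk2 to Hk1 no pair passed, with 0.74 between MPP4 and LT-HSC (exact permutation adjusted p = 0.104). These 9 calls rest on single libraries. With 1 library left out their number was 0 without control MPP4 replicate 2 or mutant ST-HSC replicate 3. It was 1 without mutant ST-HSC replicate 1, control ST-HSC replicate 1, control MPP4 replicate 3 or control MPP3 replicate 2 or 3. It was 4 or 5 without mutant LT-HSC replicate 1 or 3, control MPP4 replicate 1 or mutant ST-HSC replicate 4, and 6 to 10 otherwise.

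**Figure D5:**
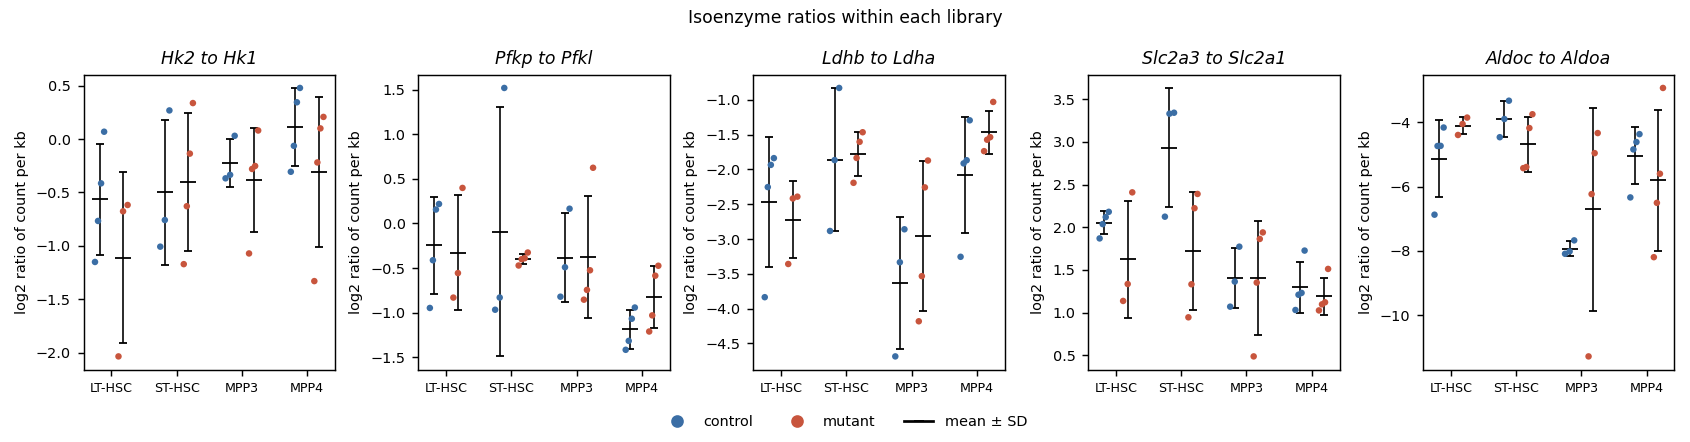
Log2 ratio of counts per kilobase between isoenzyme genes in each library; points are libraries, blue control and red mutant, with the group mean ± SD. Pfkp to Pfkl is lowest in MPP4, Ldhb to Ldha is lowest in MPP3, and Slc2a3 to Slc2a1 lies above 0 in each library; the lowest Aldoc point is a library with 0 Aldoc counts.

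Other glycolysis genes, from a fixed list of 26, were read from the same fits. Of 18 others tested, 4 differed among control populations (Bpgm, Slc2a3, Pklr and Aldoc), with 5.86% of all genes called. Of 17 tested in mutant mice 4 differed (Hk3, Pklr, Slc2a3 and Eno2), with 6.18% of all genes called. Hk3, the hexokinase of myeloid cells, was at 10.8 ± 3.27 CPM (SD, n = 3) in mutant LT-HSC and rose to 81.0 ± 29.6 CPM (SD, n = 4) in mutant MPP3, by 2.89 ± 0.35 (SE) on the log2 scale (edgeR adjusted p = 0.000104). It also rose in mutant MPP4, by 2.16 ± 0.34 (edgeR adjusted p = 0.000918). Gpi1, the isomerase that follows hexokinase, was higher in mutant MPP3 than in mutant ST-HSC by 0.78 ± 0.20 (edgeR adjusted p = 0.0322). Pklr, the pyruvate kinase of liver and red cells, had 0 counts in each of the 4 mutant MPP4 libraries and 1 to 13 in the control ones, against 52 to 177 in mutant MPP3. Bpgm, which makes the red cell metabolite 2,3-bisphosphoglycerate, was at 14.5 to 181.7 CPM in control LT-HSC, where the erythroid markers also varied, and at 8.34 to 17.5 CPM in control MPP4.

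Around the pathway, Pdk1 encodes a kinase that inhibits pyruvate dehydrogenase. Pdk1 was higher in control MPP4 (74.8 ± 6.42 CPM, SD, n = 4) than in control LT-HSC (38.1 ± 7.57 CPM), by 0.97 ± 0.21 on the log2 scale (edgeR adjusted p = 0.0107). It was 1 of the 17 genes of lactate and pyruvate fate called in that comparison, where 4.51% of all genes were called. Of 5 genes of the PFKFB and TIGAR list, Tigar, a brake on glycolysis, rose in mutant MPP3 (22 to 161 counts a library) against mutant ST-HSC (0 to 4 counts, edgeR adjusted p = 0.0067). Of 8 pentose phosphate genes, Tkt rose in the same comparison, by 0.94 ± 0.22 (edgeR adjusted p = 0.0179, with 4.27% of all genes called). Among 18 regulators of HIF and MYC, 4 differed among control populations (5.86% of all genes called) and 4 of 17 among mutant populations (6.18% of all genes called). They were Mycn, Epas1, Meis1 and Egln3 in both. Mycn fell from 72.5 ± 12.6 CPM (SD, n = 3) in mutant LT-HSC to 8.93 ± 6.60 CPM (SD, n = 4) in mutant MPP3, by a log2 difference of -3.03 ± 0.44 (edgeR adjusted p = 0.000631). Meis1, an activator of Hif1a transcription, was lower there too, by -1.09 ± 0.22 (edgeR adjusted p = 0.00957). Egln3, a HIF prolyl hydroxylase and HIF target, was higher, by 1.55 ± 0.32 (edgeR adjusted p = 0.00957).

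Over the 29 libraries Pearson's r between pairs of members, in log2 CPM, ran from -0.41 (Hk2 with Pfkl) to 0.80 (Gapdh with Pgam1), with a median of 0.19 over 45 pairs and 8 above 0.5. With group means removed the median was 0.22 and the highest was 0.71, for Gapdh with Pkm. Libraries share depth and scaling, so these values describe the data and were not tested. Of all genes, the 5 whose pattern over the 29 libraries was most like the mean of the standardised members were Cfl1 (r = 0.85), Hist1h4d (r = 0.83), Cox5a (r = 0.82), 4930558J22Rik (r = 0.82) and Eif5a (r = 0.82). Gpi1, the second enzyme of the pathway and not among the 10, ranked 15 with r = 0.80.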

How the data were processed

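PolyA RNA from 29 sorted-cell libraries had been counted per gene by the authors, and the deposited table holds RSEM expected counts that are whole numbers in every cell. The submitters' processing notes list the GRCm38 build and, in no stated role, edgeR 3.5.3, SAMtools 0.1.18, Bowtie2 2.2.0 and RSEM 1.2.12. RSEM divides reads that match several places between genes and their copies, which bears on Gapdh and Pgam1. Symbols and coordinates came from GENCODE M21, which held 37607 of the 38924 identifiers, and promoter sequences from RefSeq. Groups were read from the sample titles.

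The expected counts were tested as deposited, without rescaling, with edgeR 4.0.16 (filterByExpr with a minimum count of 10 and a total of 15, TMM, quasi-likelihood F test, Benjamini-Hochberg over all genes tested, threshold 0.05). Each mutant comparison used the libraries of 1 population, and population comparisons used 1 genotype. The average mutant effect used limma 3.58.1 with voom and a random block for the description number (consensus correlation -0.000528). An SE is the absolute log2 fold change over the square root of F. CPM values are on TMM-scaled totals. Isoenzyme ratios had 0.5 counts added and exact two-sided permutation tests, adjusted over 30 population and 5 genotype tests. Pseudogenes were GENCODE pseudogenes aligned by blastn 2.17.0 (90% identity, 200 bases and 50% coverage as minima). Alternatives were DESeq2 1.42.0, RLE size factors, no filter, 1 fit of all libraries, mitochondrial rRNA and Gm42418 left out, pseudogene counts added, a replicate block, and each library left out. The scripts were tested on simulated data. The term for the column-name code and the fit without 3 control LT-HSC libraries were chosen after seeing the data.

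Named members were those past the threshold in a comparison or, where fewer than 2 passed, the 2 with the smallest p. Of other lists, counts and up to 4 called genes by smallest p were kept, and a few further values named in the text were chosen after their values were seen. The members and gene lists were chosen with earlier results of these data known.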

Additional observations from a re-analysis of the deposited data

Results flagged for a closer look

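Pkm was at 284.75 CPM in mutant MPP4 replicate 3, and the other 3 mutant MPP4 libraries lay between 141.66 and 165.18 CPM. The gap to the next library was 0.836 of the range of the 4, above Dixon's 95% critical value of 0.829 for 4 samples. It was 1 of 50 sets of libraries tested, and chance flags about 1 in 20. The same library had the highest Hk1 of mutant MPP4, at 124.3 CPM.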

How the results depend on the processing

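Of 429 recomputed counts of called members or ratios, 386 stayed within 1.5 times the count reported or were 0 in both. Of the rest, 37 were lower and 6 higher. Of 1091 recomputed single-gene results 949 kept direction and side of the threshold, 135 lost the call, 5 gained it and 2 reversed. Results that were not called and stayed so are among the 386 and the 949. These totals therefore do not measure how firm the calls are. DESeq2 called 4 members among control populations, 2 in control MPP4 against LT-HSC, 2 in control MPP4 against ST-HSC, and 1 each in mutant ST-HSC against LT-HSC, mutant MPP4 against ST-HSC and mutant MPP4 against MPP3. The share of all genes that DESeq2 called between populations is not given here, so these counts do not show a result particular to the members. Without the 3 control LT-HSC libraries high in S100a8, control MPP3 and control MPP4 against LT-HSC had 0 members called, and 1 LT-HSC library is then assumed to vary like the other groups.

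Leaving out single libraries gave 1 to 3 called members among control populations and 2 to 3 among mutant populations. It gave 0 to 1 in control MPP3 and in control MPP4 against LT-HSC, 0 to 2 in control MPP3 against ST-HSC, 1 to 2 in mutant MPP3 against LT-HSC and 0 to 3 in mutant MPP4 against LT-HSC. The isoenzyme ratios past the threshold ranged from 0 to 10. In mutant against control, Aldoa in MPP3 ran from -0.0647 (without mutant MPP3 replicate 1) to 0.36 and Hk1 in MPP4 from -0.0127 (without mutant MPP4 replicate 3) to 0.60, and the cause was not tested. On unscaled totals 78 of 80 group means moved by less than 1 SD, and Gapdh and Pgk1 in mutant MPP3 moved by more.

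With a replicate block (the description number between populations, the title replicate number between genotypes), control MPP3 against LT-HSC had 0 called members and control MPP3 against ST-HSC had 1, and no other call of a member changed. The numbers were not taken to pair the libraries: over 39 pairs with the same number in different populations, deviations correlated from -0.152 to 0.175 (median 0.0202), with 6 over 0.1, and over 13 pairs with the same title replicate number 0 were over 0.1. For mutant against control LT-HSC the count over all genes was 0 with edgeR as reported, 319 with DESeq2, 189 without the filter, 82 in 1 fit of all libraries and 397 with the title replicate number as a block in the same 7 libraries, with 0 members in each. The lowest count of a member was 62, while Aldoc, Pklr and Tigar had 0 counts in some libraries, and the part of depth in calls that did not pass was not tested.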
